A study of Salvelinus alpinus with 144 samples.

Results

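The miRNAs of whole Arctic charr embryos (Salvelinus alpinus) were compared between PLxSB hybrids and pure SBxSB embryos at 150 τs. The τs (tau-somite) is a unit of relative age, the time in which a pair of somites forms at the temperature in question. PLxSB embryos had a planktivorous (PL, limnetic) mother and a small benthic (SB) father, and SBxSB embryos had SB parents on both sides. The comparison took 18 of the 72 small RNA libraries, 9 for each cross-type, and the series holds 144 libraries with the mRNA. Members were the entries of zebrafish (dre-) and Atlantic salmon (ssa-) miRNAs with at least 10 reads in the 18 libraries, with identical entries counted once. Of the 1400 fish entries in the table, 1036 had that many reads, and 686 distinct entries with 500 mature miRNA names remained and were tested. Of these, 454 had a mean level of at least 10 CPM, which are counts scaled to a common library total. Each entry pairs a mature miRNA with 1 hairpin precursor, so a read that fits several entries was counted on each of them.

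The parents were wild fish from Lake Thingvallavatn, and the embryos were reared under common conditions. At 150 τs the pharyngeal skeleton begins to form. Each cross-type had 3 families (H1512, H1514 and H1520 for PLxSB, and H1502, H1503 and H1504 for SBxSB), with 3 embryos per family. Embryos of a family share parents, so the spread between the 9 libraries of a cross-type is not that of 9 unrelated embryos. The embryo letter, A, B or C, is also the sequencing batch, 1, 2 or 3, so that each batch held 1 embryo of each family. The families of the cross-types share no label, and a difference between these families cannot be told apart from one between the cross-types in general. In whole embryos, fewer cells of a type and less of a miRNA per cell cannot be told apart either.

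miRNAs are short RNAs that guide the silencing complex to partly matching sites in mRNAs, which lowers the translation and stability of those mRNAs. They are cut from hairpin precursors, and the mature products of the left and right arm are called 5p and 3p. Usually 1 arm is kept and the other is largely degraded. In fish embryos, many families are typical of a tissue, such as miR-124 of neurons, miR-206 of skeletal muscle and miR-203 of the epidermis, and the miR-10 genes lie within the Hox clusters.

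The total counts over entries of all species were 22351806 to 39357649 per PLxSB library (median 30679735) and 20415671 to 52582371 per SBxSB library (median 33636217). On the 686 entries tested, they were 1353381 to 2370396 for PLxSB and 1264335 to 3122834 for SBxSB. These sums are inflated by reads counted on several entries. Libraries of the same batch deviated together from their cross-type means (mean correlation 0.438 over 27 pairs of PLxSB and SBxSB libraries, against -0.219 over 54 such pairs from different batches). The scaling factors of batch 3 also stood apart, at 1.08 to 1.22 in PLxSB and 1.33 to 1.40 in SBxSB, against 0.824 to 0.978 in batches 1 and 2 for both. The part of this in the results was not tested beyond the batch term and the values within batches given below. Families of neural (10.1%), Hox cluster (46.5%), muscle (0.280%), epidermal (1.15%) and blood and vessel miRNAs (0.395%) were all found among the counts, and these are tissues that a whole embryo holds. The shares hold the same repeated counts, so they are not abundances of the families.

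In all, 12 of the 686 entries (1.75%) passed an adjusted p of 0.1 in the edgeR quasi-likelihood test with batch as a term. PLxSB was higher in 7 (1.02%) and lower in 5 (0.729%). The 12 entries stand for few miRNAs, because near-identical entries share their reads. The 7 higher ones were all miR-181a-5p. The 5 lower ones were miR-181a-1-3p, miR-130d-3-5p and 3 entries of miR-100-5p. When near-identical entries were counted once, 504 remained and 3 passed (0.595%), namely miR-181a-1-3p, miR-130d-3-5p and miR-100-5p, all lower in PLxSB. DESeq2 called 16 of the 686 (2.33%), with all 12 among them. Of 28 entries checked, DESeq2 gave an adjusted p for 24, so its correction covered fewer than the 686 entries. Its calls and adjusted p-values are therefore not on the same footing as those of edgeR.

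**Figure D1:**
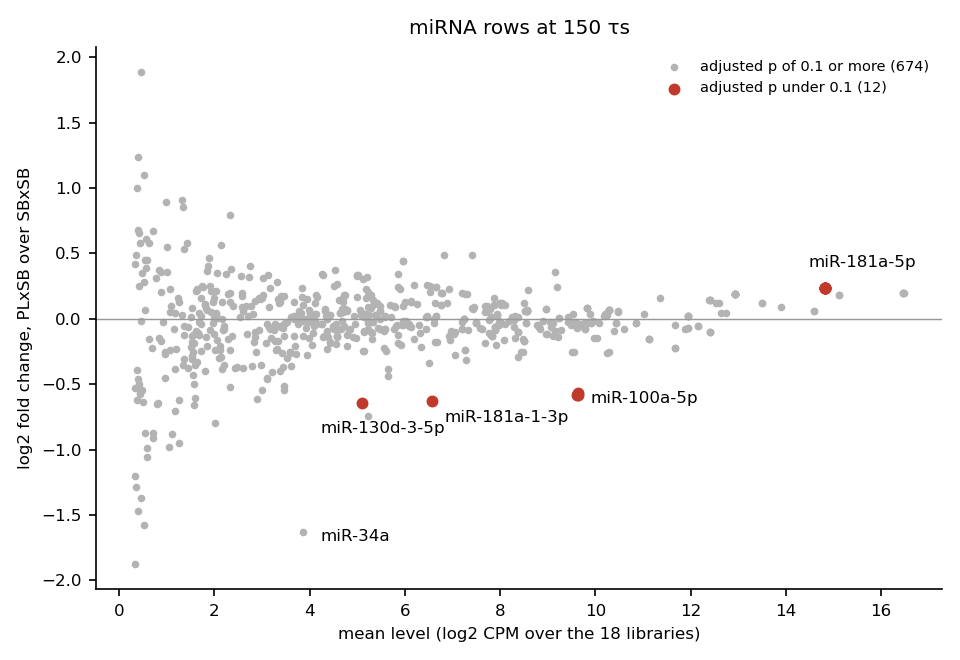
Log2 fold change of PLxSB over SBxSB (y axis) against the mean level in log2 CPM (x axis) for the 686 miRNA entries at 150 τs, with the 12 that passed an adjusted p of 0.1 in red and the others in grey. The called entries sit at miR-181a-5p, above 0 among the most abundant miRNAs, and at miR-181a-1-3p, miR-130d-3-5p and miR-100a-5p, below 0 at lower levels, and miR-34a lies lower still but in grey.

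The adjusted p was 0.0529 for each of the 12, and the calls were easily lost. With the embryos of a family modelled as correlated in limma, 0 entries passed (36 at an unadjusted p under 0.05), while the called miRNAs kept their direction with adjusted p from 0.111 to 0.297. With TMM scaling replaced by total counts, 17 entries passed, 0 higher and 17 lower in PLxSB, against 7 and 5 with TMM. The median log2 fold change over all entries was then -0.17, against -0.02 with TMM, and all values given below are on the TMM scale unless total counts are named. Leaving out 1 library changed the number to 0 without PLxSB H1520C, SBxSB H1504B or SBxSB H1502C, to 1 without PLxSB H1512C and to 5 without PLxSB H1514C. Between the cross-types, the family means did not overlap for 77 of the 686 entries (11.2%), 32 higher (4.66%) and 45 lower (6.56%) in PLxSB. For 3 against 3 families, such a separation has a probability of 0.1 by chance, and the share of 11.2% is near it. In 0 of the 686 did the 9 libraries of each cross-type separate.

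The miR-181 family is abundant in the brain and retina of zebrafish, and in these libraries it took 23.1% of the counts on tested entries. That share counts the same reads on 7 near-identical entries of miR-181a-5p, so it is not the abundance of the family. Its main arm was higher in the hybrids. For dre-miR-181a-5p (dre-mir-181a-2), PLxSB libraries ranged from 27060 to 37560 CPM (median 29610), against 19060 to 35690 CPM (median 26110) in SBxSB. All 9 PLxSB libraries lay above the SBxSB median, though the ranges overlapped. The level was 31190 ± 4242 CPM in PLxSB and 26600 ± 5373 CPM in SBxSB (SD, n = 9 each), a log2 fold change of 0.24 (SE 0.062, edgeR adjusted p = 0.0529), or 1.18-fold. The geometric family means were 30820 to 31080 CPM in PLxSB and 24590 to 27870 CPM in SBxSB, so that the PLxSB families lay close together and above every SBxSB family. With 3 against 3 families, an exact two-sided permutation test cannot give a p under 0.1, so that test is not used. Counts summed over the embryos of a family were tested in edgeR, with results given below.

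The same direction was measured in each batch, with log2 fold changes of 0.21 in batch 1, 0.18 in batch 2 and 0.30 in batch 3. In batches 2 and 3, the 3 PLxSB libraries lay above the 3 SBxSB libraries. The call was kept with the size factors of DESeq2 in edgeR (adjusted p = 0.049) and with identical entries kept (adjusted p = 0.0697). With near-identical entries once, it was lost (edgeR adjusted p = 0.212), and with total counts only the log2 fold change was 0.09 (adjusted p = 0.32). With the embryos of a family summed, the call was also lost (log2 fold change 0.28, edgeR adjusted p = 0.144). The same held in 4 of the 6 fits that left out 1 family.

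The other arm of a miR-181a hairpin went the opposite way. For ssa-miR-181a-1-3p, PLxSB libraries ranged from 39.7 to 99.3 CPM (median 75.7), against 88.7 to 145 CPM (median 106) in SBxSB. None of the 9 PLxSB libraries reached the SBxSB median, and the overlap was due to H1514A and H1512B in PLxSB and H1504A in SBxSB. The level was 74.0 ± 17.8 CPM in PLxSB and 115 ± 19.6 CPM in SBxSB (SD, n = 9 each), 0.645 times as much (log2 fold change -0.63, SE 0.136, edgeR adjusted p = 0.0529). Family means were 66.0 to 78.4 CPM in PLxSB and 108 to 126 CPM in SBxSB. Within batches the log2 fold changes were -0.59, -0.72 and -0.64 in batches 1, 2 and 3. This miRNA had the lowest p of all 686 entries.

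Among the 25 entries of the miR-181 family, 7 passed as higher and 1 as lower, beside 7 (1.02%) and 5 (0.729%) of all 686. The 7 are near-identical entries of miR-181a-5p, which did not pass when counted once (edgeR adjusted p = 0.212). The median log2 fold change of the 25 entries was 0.13, against -0.02 over all entries. The 3p arms differed among themselves. The dre-miR-181a-3p entry had 1132 ± 135 CPM in PLxSB and 1356 ± 192 CPM in SBxSB (SD, n = 9 each) with a log2 fold change of -0.26 (edgeR adjusted p = 0.139). It passed in DESeq2 (adjusted p = 0.0513). Its ssa-miR-181a-4-3p counterpart had a log2 fold change of -0.26 too (adjusted p = 0.503), whereas ssa-miR-181a-2-3p (-0.03), ssa-miR-181a-3-3p (-0.04) and ssa-miR-181a-5-3p (-0.04) had values near 0. With total counts only, the first 2 of these also passed as lower (adjusted p = 0.011 and 0.0978). The miR-181b-5p entries of zebrafish had 0.14 (adjusted p = 0.705). The 5p entries of these hairpins hold nearly the same counts, so their reads could not be assigned to 1 hairpin, and no ratio of the arms was computed.

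Of the let-7, miR-99/100 and miR-125 families, which sit together in vertebrate gene clusters, only miR-100-5p passed, with 3 of the 65 entries lower and 0 higher. Over all 686 entries, 5 passed as lower (0.729%) and 7 as higher (1.02%). The 3 entries are near-identical and share their reads, so they do not count as separate results. For ssa-miR-100a-5p (ssa-mir-100a-1), PLxSB libraries ranged from 389 to 845 CPM (median 522) and SBxSB libraries from 458 to 1902 CPM (median 521). The medians of the 9 libraries were thus the same, and the cross-types differed at the upper end. The means were 579 ± 181 CPM in PLxSB and 999 ± 666 CPM in SBxSB (SD, n = 9 each), with a log2 fold change of -0.58 (SE 0.146, edgeR adjusted p = 0.0529). Family means of 510 to 596 CPM in PLxSB lay below those of 757 to 970 CPM in SBxSB.

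This difference depended on the batch. In batch 2, the 3 PLxSB libraries had 789, 845 and 804 CPM, against 1896, 1798 and 1902 CPM in the 3 SBxSB libraries. In batch 1 the values were 389, 471 and 522 CPM in PLxSB and 921, 521 and 512 CPM in SBxSB, and in batch 3 they were 429, 529 and 437 CPM in PLxSB and 520, 461 and 458 CPM in SBxSB. Both cross-types were thus at their highest in batch 2, and the libraries overlapped in batches 1 and 3. The log2 fold changes were -0.47 in batch 1, -1.23 in batch 2 and -0.08 in batch 3. The dre-miR-100-5p entry shares nearly all these reads and gave -0.46, -1.21 and -0.06. The 3p arms of the same hairpins were at 1.56 to 15.8 CPM in PLxSB and 1.63 to 16.7 CPM in SBxSB, with log2 fold changes of -0.11, 0.01 and 0.03, none of which passed. Whether a difference between batches set the miR-100-5p values of batch 2 was not tested.

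The third miRNA lower in PLxSB was miR-130d-3-5p, the minor arm of a hairpin of the miR-130 family, whose main arm shares its seed with miR-301. Its ssa-miR-130d-3-5p entry ranged from 12.8 to 46.4 CPM (median 21.3) in PLxSB and from 28.4 to 81.0 CPM (median 33.2) in SBxSB. The ranges overlapped through the 3 batch 3 libraries of PLxSB, and the highest library of each cross-type was in batch 3. The mean was 25.4 ± 11.2 CPM in PLxSB and 39.5 ± 17.3 CPM in SBxSB (SD, n = 9 each), 0.639 times as much (log2 fold change -0.65, SE 0.161, edgeR adjusted p = 0.0529). Its counts were 21 to 121 per PLxSB library and 40 to 318 per SBxSB library.

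In batches 1 and 2, the PLxSB libraries of miR-130d-3-5p all lay below those of SBxSB (18.2 to 25.7 CPM against 28.4 to 37.3 CPM in batch 1, and 12.8 to 21.3 CPM against 28.9 to 33.2 CPM in batch 2). In batch 3 they ranged from 34.9 to 46.4 CPM in PLxSB and 33.3 to 81.0 CPM in SBxSB. Log2 fold changes were -0.54, -0.93 and -0.56 in batches 1, 2 and 3. Without family H1504, whose C embryo was the highest library, the log2 fold change was -0.44 (adjusted p = 0.257).

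Other 5p arms of the family had values of the same sign without passing the test. The ssa-miR-130b-5p entry, named after its values were seen, had 40.8 ± 13.0 CPM in PLxSB and 55.5 ± 21.4 CPM in SBxSB (log2 fold change -0.44, edgeR adjusted p = 0.115, n = 9 each). It passed in DESeq2 (adjusted p = 0.0528). The ssa-miR-130b-2-5p entry had -0.40 (adjusted p = 0.614) and ssa-miR-130d-2-5p had -0.36 (adjusted p = 0.705), while ssa-miR-130d-1-5p had 0.13 (adjusted p = 0.966). The main arms were more abundant and closer to 0. The most abundant, dre-miR-130c-3p, was at 1498 CPM in PLxSB and 1593 CPM in SBxSB, with -0.08 (adjusted p = 0.946), and ssa-miR-130d-3p had -0.09 (adjusted p = 0.938). Of the 15 entries of the family, 1 passed, as lower, beside 5 of all 686 that passed as lower (0.729%).

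**Figure D2:**
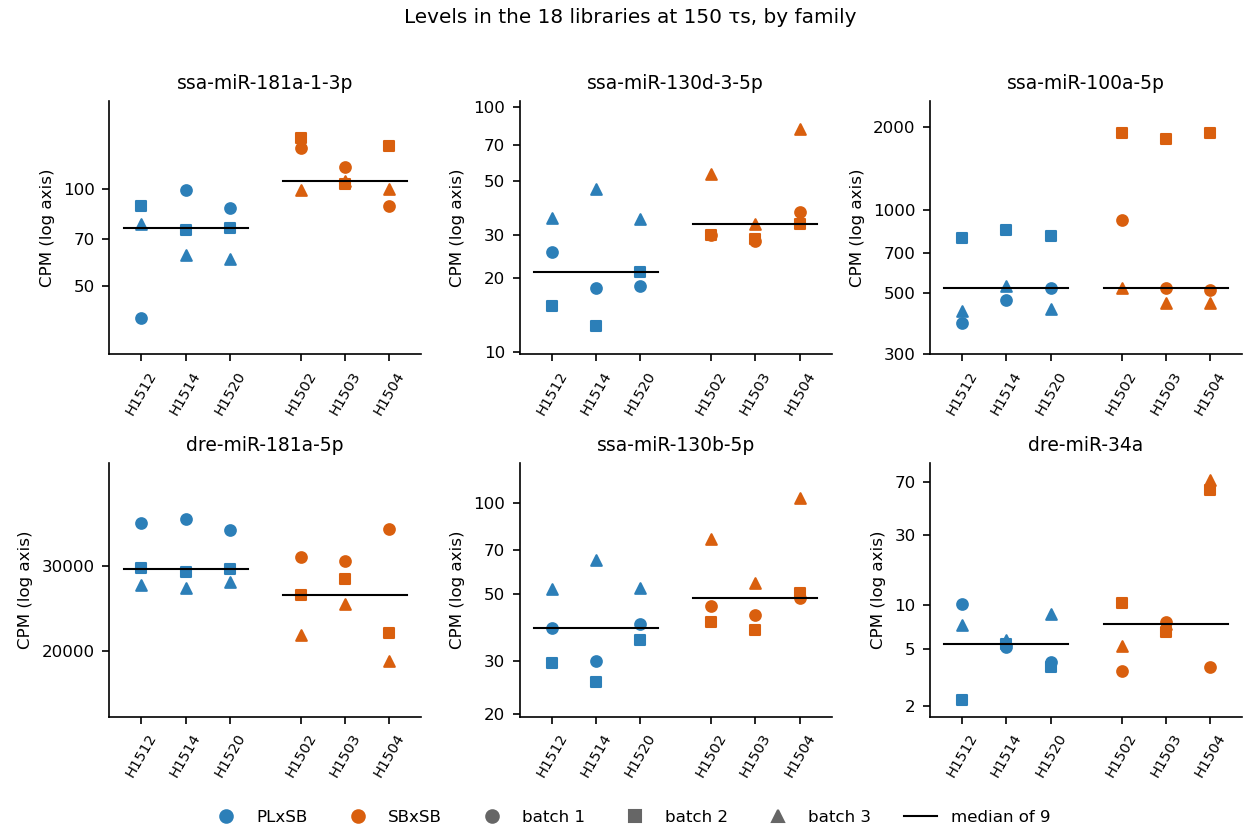
CPM on a log axis in the 18 libraries at 150 τs for 6 miRNAs, by family, with PLxSB in blue and SBxSB in orange, the marker giving the sequencing batch and the line the median of 9 libraries. All PLxSB libraries of miR-181a-1-3p lie below the SBxSB median of 106 CPM, the 3 batch 2 libraries of SBxSB hold the high values of miR-100a-5p, and 2 embryos of H1504 hold those of miR-34a.

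**Figure D3:**
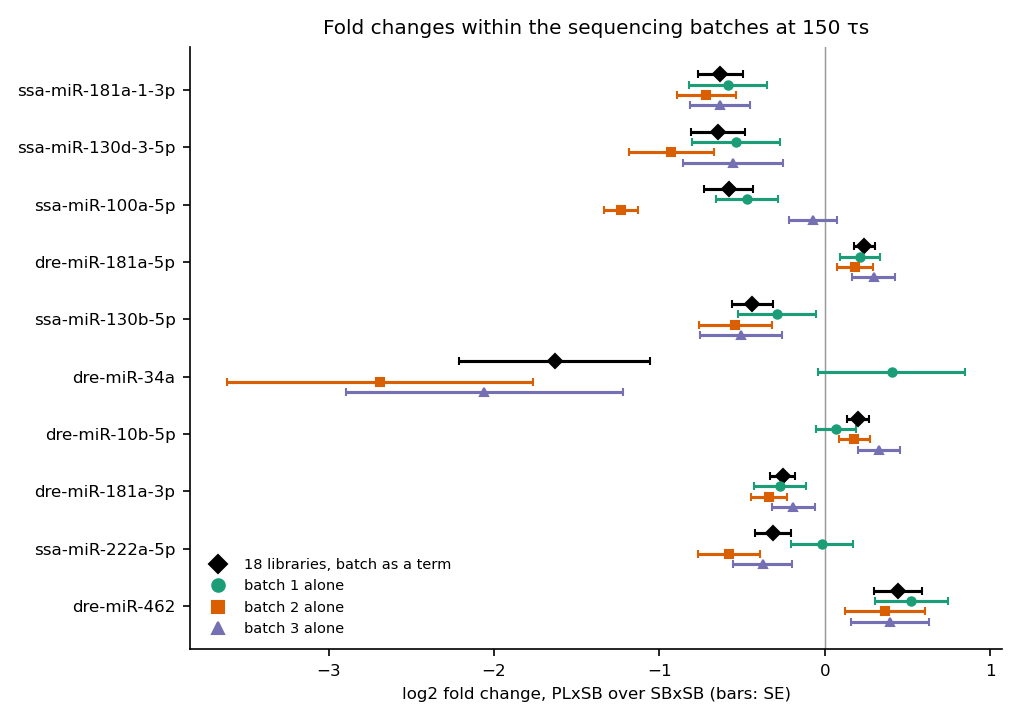
Log2 fold changes of PLxSB over SBxSB (x axis, bars show the SE) for 10 miRNAs, from the 18 libraries with batch as a term and from each batch alone. The values of miR-181a-1-3p, miR-130d-3-5p and miR-181a-5p keep their sign in every batch, those of miR-100a-5p range from -1.23 to -0.08, and miR-34a is at 0.40 in batch 1 and at -2.69 and -2.06 in batches 2 and 3.

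The largest log2 fold change among entries with a mean of at least 10 CPM in either cross-type was that of miR-34a, at -1.63, and it did not pass in the test of the 18 libraries. This miRNA is induced by p53 in mammals. Its values were 2.22 to 10.2 CPM in PLxSB (median 5.40) and 3.496 to 72.1 CPM in SBxSB (median 7.37). High values were confined to 2 of the 9 SBxSB libraries, H1504B at 61.5 CPM and H1504C at 72.1 CPM, while the third H1504 embryo, H1504A, was at 3.73 CPM and the other 6 SBxSB libraries were at 3.496 to 10.3 CPM. The mean was 5.81 ± 2.49 CPM in PLxSB and 19.7 ± 26.9 CPM in SBxSB (SD, n = 9 each), with an SE of 0.575 and an edgeR adjusted p of 0.252. At 200 τs, SBxSB was uneven as well, with a median of 7.71 CPM and a highest library of 40.2 CPM, on a scaling common to 71 libraries. Its family means there were 5.67 to 25.9 CPM, and the highest PLxSB library was at 11.1 CPM.

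Without family H1504, the log2 fold change of miR-34a was -0.15 (adjusted p = 0.97), and without H1503 it was -2.11 (adjusted p = 0.0462). It also passed when the libraries of all 8 groups were fitted together (-1.73, adjusted p = 0.0153 without and 0.013 with the failed library of PLxSB at 200 τs). The miR-449 entries, which share the miR-34 seed, had log2 fold changes of -0.41 (ssa-miR-449b-5p, adjusted p = 0.492) and -0.25 (ssa-miR-449a-5p, adjusted p = 0.894). All 3 entries of this list were thus lower in value in PLxSB, and 0 passed.

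The same pair of embryos held the highest values of other miRNAs. H1504C had the highest dre-miR-430b-3p value, 121 CPM, against 18.7 to 65.3 CPM in the other SBxSB libraries and 11.8 to 37.2 CPM in PLxSB. In zebrafish, miR-430 clears maternal mRNAs from the early embryo. Of its 7 entries, 6 had negative values, with a median of -0.24, and 0 passed. H1504B had the highest ssa-miR-221-3p value, 218 CPM, against 57.3 to 121 CPM in the other SBxSB libraries and 59.4 to 121 CPM in PLxSB. The log2 fold change of this miRNA, which takes part in vessel sprouting in zebrafish, was -0.34 (adjusted p = 0.36), and that of ssa-miR-222a-5p from the same cluster was -0.32 (adjusted p = 0.213).

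The most abundant miRNAs of the embryos were those of the Hox clusters. The 5 entries with the most reads were 4 of miR-10b-5p and 1 of miR-10d-5p. For dre-miR-10b-5p (dre-mir-10b-1), PLxSB libraries ranged from 62370 to 124800 CPM (median 95160) and SBxSB libraries from 53040 to 110600 CPM (median 94980). The cross-types overlapped widely, and batch 3 was the lowest in both. Its log2 fold change was 0.20 (SE 0.067, edgeR adjusted p = 0.213), and within batches it was 0.07, 0.18 and 0.33. Family means of 91880 to 96310 CPM in PLxSB lay above 79020 to 85120 CPM in SBxSB. With the embryos of a family summed, it passed (log2 fold change 0.29, edgeR adjusted p = 0.0487), as did miR-10d-5p (0.28, adjusted p = 0.0506). Each sum pools the 3 batches, so batch could not be a term. Batch 3 had a median of 2795808 counts on tested entries in SBxSB and 1934131 in PLxSB, so it weighs more in the SBxSB sums. How far this moved the summed values was not tested. With the miR-10 family left out of the scaling and the test, 16 entries passed.

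Further miRNAs with an unadjusted p under 0.05 did not pass the correction in the edgeR test of the 18 libraries. In all, 52 entries had such a p (7.58%), 23 higher and 29 lower in PLxSB. The miRNAs described here were named after their values were seen. The teleost dre-miR-462, which responds to virus infection in trout, ranged from 38.7 to 145 CPM in PLxSB and from 25.97 to 77.6 CPM in SBxSB, with a log2 fold change of 0.44 (adjusted p = 0.19). It was positive in every batch (0.52, 0.36 and 0.40), and it passed in DESeq2, which corrected over fewer entries (adjusted p = 0.0986). The hypoxia-related dre-miR-210-3p had 195 ± 113 CPM in PLxSB and 139 ± 62.7 CPM in SBxSB, with 0.49 (adjusted p = 0.33). The low dre-miR-15b-5p, at 5.24 ± 1.78 CPM in PLxSB and 2.90 ± 1.11 CPM in SBxSB, had 0.79 (adjusted p = 0.181).

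Some low-level 5p arms of miR-200 and miR-192 hairpins had an unadjusted p under 0.05 with negative values, while minor arms of other epithelial and gut families had positive ones, such as ssa-miR-205a-3p (0.21) and ssa-miR-375-5p (0.65). The 1 epithelial entry with a positive value and such a p was dre-miR-203b-3p, at 0.594 CPM in PLxSB and 0.158 CPM in SBxSB with 14 reads in all (1.89, adjusted p = 0.33). The dre-miR-200b-5p entry had 8.07 ± 2.16 CPM in PLxSB and 11.6 ± 2.02 CPM in SBxSB, a log2 fold change of -0.54 (edgeR adjusted p = 0.141, n = 9 each). The ssa-miR-200a-2-5p entry, with nearly the same counts, had -0.51 (adjusted p = 0.19), and ssa-miR-192b-5p had 5.90 ± 1.42 CPM in PLxSB and 8.69 ± 2.53 CPM in SBxSB, with -0.55 (adjusted p = 0.139). The miR-200 family maintains epithelia, and miR-192 is typical of liver and gut. At these levels, a library held 7 to 51 reads of miR-200b-5p and 8 to 29 reads of miR-192b-5p.

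The other miRNAs named by family did not pass. The liver-rich ssa-miR-148a-5p was at 0.12, the pancreatic dre-miR-375 at 0.12, the mesenchymal dre-miR-199-3p at -0.08, the cartilage-associated dre-miR-455-5p at -0.15 and the salmonid ssa-miR-8160-5p at 0.33 on the log2 scale. For dre-miR-455-5p, the 9 PLxSB libraries ranged from 261 to 317 CPM and all lay below the SBxSB median of 326 CPM, while SBxSB ranged from 269 to 382 CPM (edgeR adjusted p = 0.705). Its family means did not overlap, at 293 to 312 CPM in PLxSB and 315 to 359 CPM in SBxSB. For ssa-miR-8160-5p, 1 PLxSB library, H1512A, was at 70.7 CPM and the others at 8.76 to 20.7 CPM, against 10.4 to 26.4 CPM in SBxSB, and without H1512A the log2 fold change was -0.08.

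By tissue list, calls were found in 3 of the 16 lists, those of miR-181, of let-7, miR-99/100 and miR-125, and of broadly expressed miRNAs, and in 0 of the 101 entries outside the lists. None of the 105 neural, 23 muscle, 30 epidermal, 26 cartilage and mesenchyme, 19 blood and vessel or 24 Hox cluster entries passed in edgeR with TMM scaling. Over all 686 entries, only 12 passed (1.75%), so a lack of calls in lists of these sizes says little about their tissues. Of the neural entries, 48 had positive and 57 negative values (median log2 fold change -0.02, the same as over all 686 entries, of which 323 were positive and 363 negative). The neural list includes miR-221 and miR-222, which are not confined to neural tissue. Their 3 and 6 entries were all negative. Of the muscle entries, 19 were positive and 4 negative, with a median of 0.15. The 5 miR-1 entries, a family of heart and skeletal muscle, were all positive (0.25 to 0.58), and dre-miR-206-3p had 163 ± 42.6 CPM in PLxSB and 152 ± 75.2 CPM in SBxSB (0.19, adjusted p = 0.852). Some muscle entries are near-identical and share reads, 3 for dre-miR-1 and 2 for dre-miR-206-3p, so their signs are not separate results. With total counts only, the muscle median was -0.03, with 10 positive and 13 negative, beside 134 positive and 552 negative over all entries.

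Of the cartilage and mesenchyme list, 24 of the 26 entries had negative values, with a median of -0.08 and a range of -0.25 to 0.04, beside 363 negative of all 686. Several are near-identical entries of miR-199 that share reads. The dre-miR-199-5p entry (dre-mir-199-3) had 341 ± 46.1 CPM in PLxSB and 383 ± 31.9 CPM in SBxSB (log2 fold change -0.17, edgeR adjusted p = 0.57, n = 9 each). The ssa-miR-140-3p entry, a cartilage miRNA in zebrafish, had 55.1 ± 6.38 CPM in PLxSB and 62.8 ± 5.95 CPM in SBxSB (-0.20, adjusted p = 0.624), and dre-miR-143 was at 6948 CPM in PLxSB and 6761 CPM in SBxSB (0.04, adjusted p = 0.956). The epidermal list had 7 positive and 23 negative entries (median -0.13) and the sensory organ list 1 and 7 (median -0.24). With total counts only, 0 of the 26 cartilage and mesenchyme entries were positive and 4 passed as lower, where 552 of all 686 entries were negative and all 17 calls were lower.

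**Figure D4:**
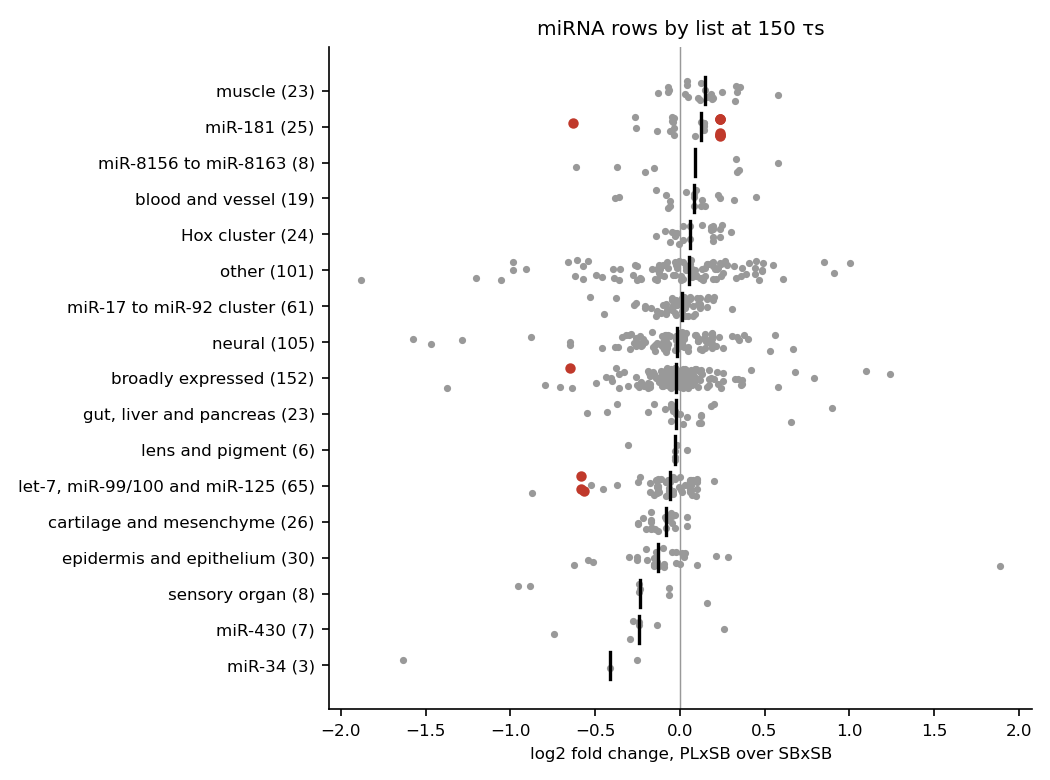
Log2 fold changes of PLxSB over SBxSB (x axis) of the 686 entries, by tissue list with the number of entries in brackets, as grey points for entries that did not pass, red points for the 12 that did, and a black line for the median of the list. List medians lie between -0.41 for the 3 miR-34 entries and 0.15 for muscle, and the red points belong to miR-181, to miR-100 and to miR-130.

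Where both arms of a hairpin were at 10 CPM or more (133 hairpins), the arms had fold changes of opposite sign in 71, and the median size of the difference between arms was 0.16 on the log2 scale. Of the called miRNAs, only miR-181a-1-3p had a partner arm that was called too, and in the opposite direction. The partner is the shared miR-181a-5p product, at 28860 CPM over the 18 libraries against 94.3 CPM for the 3p arm.

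Among all 4 cross-types at 150 τs, the means of SBxSB were the highest for the 3 called miRNAs that were lower in PLxSB and the lowest for miR-181a-5p. On a scaling common to 71 libraries, miR-181a-1-3p had 73.1 ± 18.1 CPM in PLxSB, 69.9 ± 21.8 CPM in SBxPL (SB mother, PL father), 74.7 ± 22.9 CPM in PLxPL and 113 ± 18.7 CPM in SBxSB (SD, n = 9 each). The lowest SBxSB family mean, 107 CPM, lay above the highest of the other cross-types, 81.0 CPM, whose levels lay within their spread. For miR-181a-5p the mean was 30880 CPM in PLxSB, 30530 CPM in SBxPL, 31560 CPM in PLxPL and 26170 CPM in SBxSB. For miR-100a-5p it was 574 CPM in PLxSB, 604 CPM in SBxPL, 609 CPM in PLxPL and 985 CPM in SBxSB. The highest family mean of miR-100a-5p outside SBxSB was 732 CPM, in SBxPL, and the lowest in SBxSB was 923 CPM. The medians of the 9 libraries did not follow the means, with 497 CPM in PLxSB, 430.0 CPM in SBxPL, 579 CPM in PLxPL and 522 CPM in SBxSB. For miR-130d-3-5p the mean was 24.9 CPM in PLxSB, 30.5 CPM in SBxPL, 28.9 CPM in PLxPL and 39.0 CPM in SBxSB, and the family means of SBxPL, up to 32.3 CPM, overlapped those of SBxSB, from 29.6 CPM. PLxSB families were the lowest for miR-130d-3-5p, at 24.6 to 25.3 CPM. These levels are a description, and the order was not tested. The miRNAs were picked by the difference between the same PLxSB and SBxSB libraries, so the extreme place of SBxSB is partly set by that choice.

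At 200 τs, when most head cartilages have formed, the means of miR-181a-1-3p and miR-100a-5p differed less between PLxSB and SBxSB than at 150 τs. The miR-181a-1-3p level was 68.5 ± 19.9 CPM in PLxSB (n = 8, without a failed library) and 64.1 ± 12.4 CPM in SBxSB (n = 9). The miR-100a-5p level was 379 ± 99.8 CPM in PLxSB and 463 ± 221 CPM in SBxSB. Across all cross-types, the means of miR-181a-5p spread further at 200 τs, with 40400 CPM in PLxSB, 43870 CPM in SBxPL, 47580 CPM in PLxPL and 37950 CPM in SBxSB. Between PLxSB and SBxSB alone, its log2 fold change was 0.226 at 150 τs and 0.085 at 200 τs (edgeR adjusted p = 0.732 at 200 τs) in a fit of both time points. Not every difference was smaller at 200 τs. In that fit, ssa-miR-221-3p was at -0.356 at 150 τs and -0.611 at 200 τs, and ssa-miR-222a-5p at -0.327 and -0.385. Each passed at 200 τs (edgeR adjusted p = 0.0582). In the test of the difference between time points, over 35 libraries and 745 entries, 0 passed in edgeR (33 at an unadjusted p under 0.05), against 2 in DESeq2. The difference was -0.93 for miR-130d-3-5p (log2 fold changes of -0.67 at 150 τs and 0.27 at 200 τs, adjusted p = 0.205) and -0.74 for miR-181a-1-3p (-0.65 at 150 τs and 0.10 at 200 τs, adjusted p = 0.205). These have the lowest p of the 745 entries. For miR-181a-5p it was 0.14 (adjusted p = 0.931) and for miR-100a-5p -0.51 (adjusted p = 0.718). The called miRNAs were picked by their difference at 150 τs in these same libraries. A smaller difference at 200 τs is therefore partly set by that choice.

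**Figure D5:**
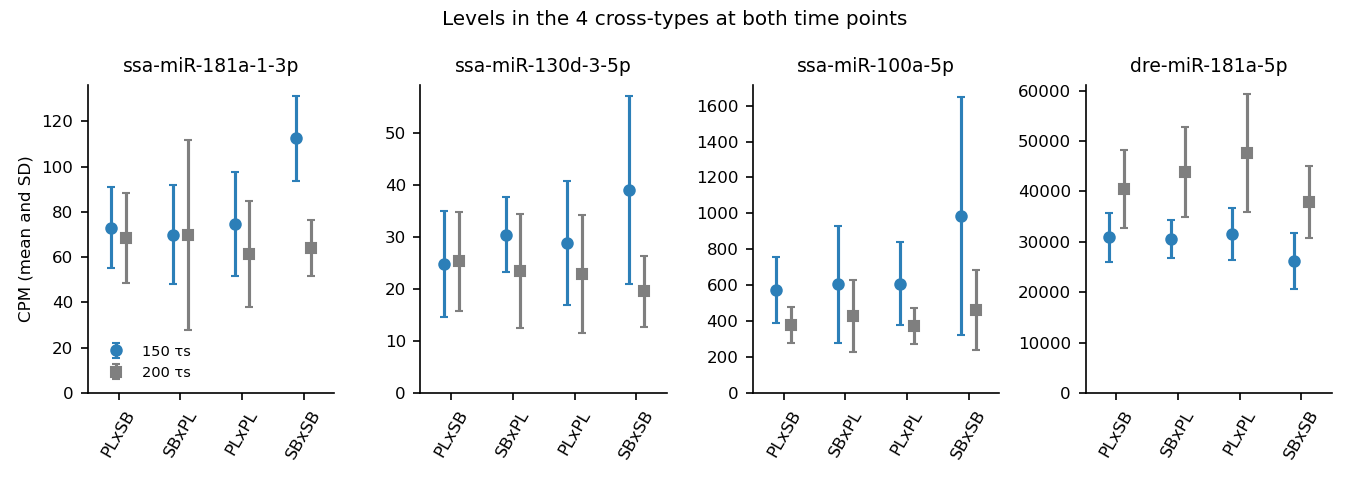
CPM (mean and SD) of the 4 called miRNAs in the cross-types PLxSB, SBxPL, PLxPL and SBxSB at 150 τs (blue circles) and 200 τs (grey squares), with n = 9 except n = 8 for PLxSB at 200 τs. At 150 τs, SBxSB is at 113 CPM of miR-181a-1-3p, against 69.9 to 74.7 CPM in the others, and at 200 τs the cross-types are at 61.4 to 69.8 CPM.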

How the data were processed

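Small RNA of whole embryos was sequenced in 3 batches. Per the study's methods, the authors removed adapters with Cutadapt, mapped reads to a Salvelinus genome and counted them with the Quantifier module of miRDeep2 on miRBase entries of all species. They also describe removing highly similar sequences across species with Cd-hit, yet near-identical entries are present in the counts used here. The deposited values used here are raw counts per entry (53327 rows), without normalization; versions are not given in the sources used here. Another 72 columns of normalized values were not used. Every count was a whole number, and 0 of 288 pairs of libraries of the same group had identical columns.

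Columns were matched to libraries by the codes that accompany the table. Libraries were tested with edgeR 4.0.16 (TMM scaling, quasi-likelihood F-test, cross-type and batch as terms) in R 4.3.3, and p-values were adjusted by Benjamini-Hochberg over the 686 entries with a threshold of 0.1. CPM are TMM-scaled counts on these entries. SEs are those of the fitted log2 fold changes. The batch pairs libraries across cross-types, because the labels give it for each embryo. DESeq2 1.42.0 and limma 3.58.1 were run as alternatives. The model was also tried on simulated data, but the outcome is not reported here and no result rests on it. Entries were called near-identical when their counts differed by at most 10% per library, or 2 reads, and 5% in sum. The other settings tried were other scalings, filters, sample sets, family sums and single batches. Figures were drawn with matplotlib 3.10.9 in Python 3.11.15.

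Named miRNAs were up to 10 called entries in each direction with a mean of at least 10 CPM, 1 entry per mature name, the most abundant entry of each family with a call and of miR-34, miR-100, miR-181, miR-148, miR-199, miR-375, miR-455 and miR-8160, and the 5 entries with the most reads; every other miRNA named was chosen after its values were seen. The comparison, its members and the lists were chosen with earlier results of these data known. A library of PLxSB at 200 τs with 127822 counts was left out of the comparison over time. No sequences are shown.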

Additional observations from a re-analysis of the deposited data

Results flagged for a closer look

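In 5 of the 56 groups of 9 libraries examined for the named miRNAs, 1 library lay far from the other 8. The rule for such a gap is met by chance in about 1 of 20 independent groups with a normal spread. Here near-identical entries share reads, and some miRNAs were named after their values were seen. The count of 5 can therefore not be compared with that rate. In PLxSB, H1512A had 70.73 CPM of ssa-miR-8160-5p (132 reads), and the next library had 20.65 CPM. In PLxSB, H1520C had 465 CPM of dre-miR-210-3p, and the next had 231.3 CPM. In SBxSB, H1504C had 80.96 CPM of ssa-miR-130d-3-5p (318 reads), next to 53.29 CPM, and 121.4 CPM of dre-miR-430b-3p, next to 65.26 CPM. In SBxSB, H1504B had 217.6 CPM of ssa-miR-221-3p, next to 120.5 CPM. The last 3 belong to the embryos that also held the high miR-34a values. What these libraries share was not tested.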

How the results depend on the processing

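The number of called entries was 12 in the test as reported. It was 60 with the entries of all species (2064 tested, where near-identical entries recur across species), 0 with no replicate block (the batch term left out, 19 at an unadjusted p under 0.05), and 0 in limma voom with a family correlation of 0.0803. It was 11 in limma voom without that correlation. It was 0 in batch 1 alone, 3 in batch 2 alone and 0 in batch 3 alone. In alternatives added after seeing the data, it was 3 with near-identical entries once and 3 without batch 3. With the embryos of a family summed, which pools the batches without a batch term, it was 10, of which 4 were among the 12. Those 4 were miR-181a-1-3p and the entries of miR-100-5p, while miR-181a-5p (edgeR adjusted p = 0.144) and miR-130d-3-5p (adjusted p = 0.382) were lost. Without 1 family at a time the number of called entries ranged from 0 to 19 (0 without H1514, H1520 or H1502, 1 without H1512, 15 without H1504 and 19 without H1503), and without 1 library from 0 to 16. Beyond the changes each setting makes, the cause was not tested.

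The count for the difference between time points was 0, and it was 1 with a mean of at least 10 CPM, 1 with all 8 groups, 2 in DESeq2, 13 with the embryos of a family summed, and 0 to 1 without 1 family. The count of 1 came without H1503.

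The called miRNAs kept their sign in every setting. Without 1 family, log2 fold changes ranged from -0.70 to -0.56 for miR-181a-1-3p, from -0.84 to -0.44 for miR-130d-3-5p, from -0.69 to -0.46 for miR-100a-5p and from 0.20 to 0.28 for miR-181a-5p. Among uncalled miRNAs, signs turned with total counts only for ssa-miR-148a-5p (-0.019) and dre-miR-375 (-0.013). In batch 1 alone they turned for dre-miR-375 (-0.10), dre-miR-130c-3p (0.13), dre-miR-34a (0.40) and dre-miR-430b-3p (0.55), and in batch 2 alone for ssa-miR-8160-5p (-0.18). Without 1 family, dre-miR-130c-3p ranged from -0.20 to 0.03 and ssa-miR-8160-5p from -0.21 to 0.58, and without 1 library from -0.11 to 0.004 and from -0.08 to 0.47. Of the named miRNAs, miR-15b-5p had 2 to 20 reads per library and miR-192b-5p 8 to 29, which limits the precision of their values.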
